A study of Mus musculus with 6 samples.

Results

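Cardiac fibroblasts are the connective tissue cells of the heart. In the resting heart they are recognised by surface receptors and transcription factors such as Pdgfra and Tcf21 and by the small proteoglycans they secrete. When the tissue is strained or injured they become activated: they make periostin, fibronectin, thrombospondins and other proteins that remodel the matrix. The genes described here are 39 such markers and secreted proteins of the 35976 genes in the count table. They were chosen by name, with earlier results of these data known. They fall into 13 identity genes, 11 activation genes and 15 further matrix and secreted genes, and all 39 had enough counts to be tested among 14879 genes.

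The libraries came from heart tissue of mice labelled WT, 3 in each of 2 groups, and are called edited hearts and control hearts 1, 2 and 3 by their label numbers. Edited hearts had received AAV-MYL2-TadA8e-Sauri-U6-Camk2d sgRNA7, an adeno-associated virus (AAV) that carries an adenine base editor (TadA8e joined to the Cas9 named Sauri) behind a MYL2 promoter and a guide RNA against the splice site that opens intron 7 of Camk2d. Control hearts had no treatment, so virus, editor and edit differ together between the groups and cannot be told apart. The MYL2 promoter is a promoter of heart muscle cells, so the editor is not driven by a fibroblast promoter. The labels give no age, sex, dose or part of the heart and do not tie replicates to separate animals. P-values therefore measure the spread between these libraries, which may be technical.

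Total counts per library were 17265842 to 23097998 in edited hearts and 17062412 to 19743748 in control hearts. Levels are given as CPM, read counts scaled to a common library size, here after TMM scaling, and changes as log2 edited over control from edgeR's quasi-likelihood test with Benjamini-Hochberg adjustment over all 14879 genes, where an adjusted p under 0.05 counts as a call. The targeted gene, Camk2d, was at 138, 130 and 164 CPM in edited hearts 1, 2 and 3, against 226, 220 and 224 CPM in control hearts 1, 2 and 3 (log2 -0.63, SE 0.07, adjusted p = 4.76e-04). A two-sided exact permutation test of its log2 CPM gave p = 0.1, the smallest that 3 against 3 libraries allow. The tissue label is matched by heart muscle transcripts: Myh6, the main myosin heavy chain of the adult mouse heart, held 31031 to 33630 CPM in edited and 36066 to 38098 CPM in control hearts.

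Most fibroblast and matrix genes were not called between the groups, and of the 7 that changed, 5 changed by less than 1.5-fold. Of the 39 members, 6 rose in edited hearts (15.4%, where 4.93% of all tested genes were called higher) and 1 fell (2.56%, where 4.74% of all tested genes were called lower). In either direction 9.66% of all tested genes were called. Because the members were chosen with earlier results of these data known, these shares only describe them. The number that rose was 3 without control 1 or without control 3, and 0 with the atrial gene Myl7 as a covariate. All genes called higher also fell in these settings, from 733 to 413, 188 and 46. Myl7 was lower in every control heart than in every edited heart, and near 0 in controls 1 and 3. This covariate and the group therefore cannot be fully told apart. The 6 that rose were the proteoglycans Lum and Vcan, the secreted proteins Cthrc1 and Wisp2, and the adhesive glycoproteins Fn1 and Thbs2. The 1 that fell was Ogn, the proteoglycan osteoglycin. Every edited heart was above every control heart for 12 members (14.6% of all tested genes) and below every control heart for 2 (14.7% of all tested genes). The median log2 change was 0.11 over the members, beside 0.0013 over all tested genes. In bulk tissue, fewer cells of a type and less RNA per cell cannot be told apart.

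**Figure D1:**
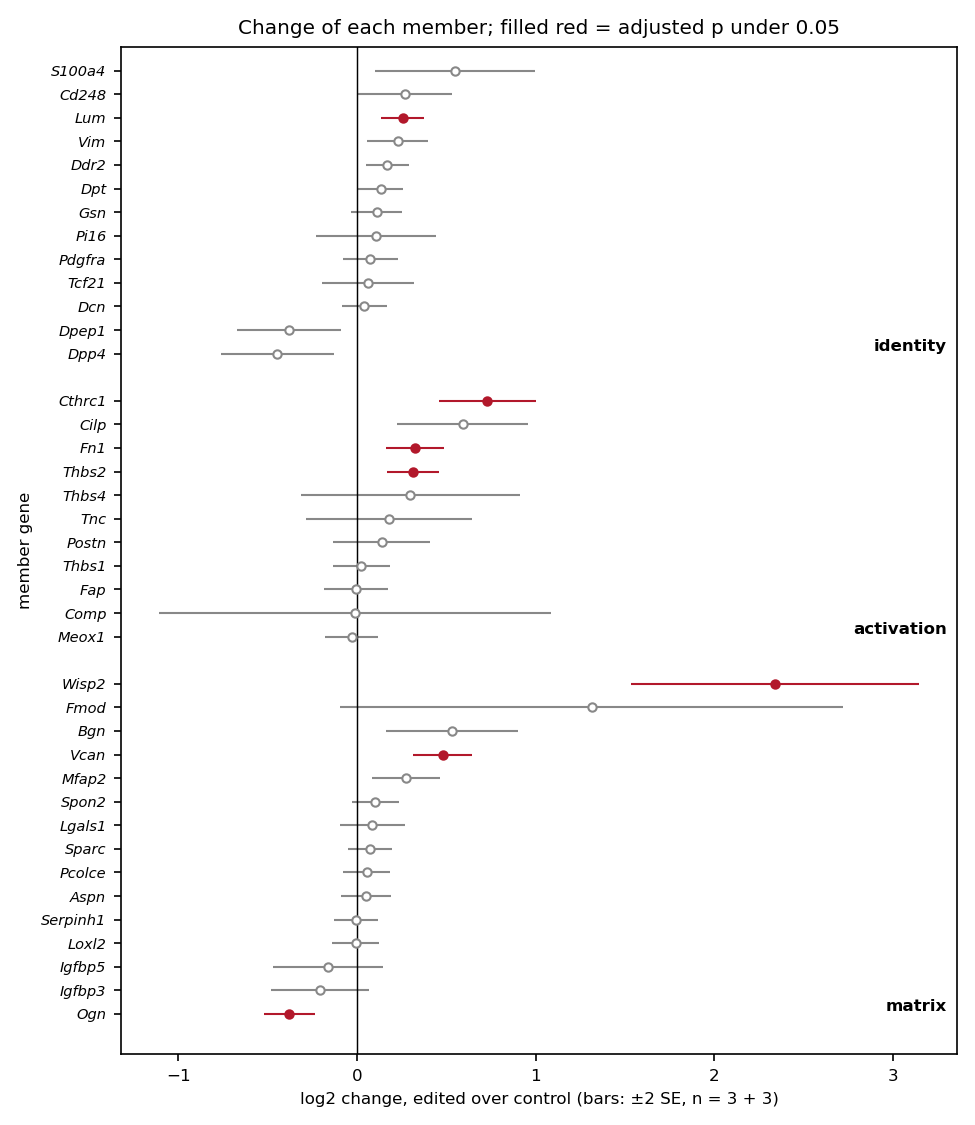
Log2 change of each of the 39 members, edited over control, with bars of ±2 SE from edgeR (3 edited and 3 control libraries); genes are ordered by change within the identity, activation and matrix groups. The 7 filled red points passed the threshold, 6 to the right of 0 and Ogn to the left; the widest bars belong to Comp, Fmod and Wisp2.

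The members spanned a wide range of levels. Per kilobase of exon, the highest members were Sparc, a collagen-binding glycoprotein (724 CPM per kilobase in edited and 688 in control hearts), and Vim, the intermediate filament vimentin (442 and 377). They were followed by Serpinh1, the collagen chaperone HSP47 (281 in edited and 282 in control hearts), the proteoglycan Dcn, decorin (261 and 253), and Postn, periostin (256 and 233). Together the 39 genes took 0.789%, 0.908% and 0.821% of counts in edited hearts 1, 2 and 3, against 0.725%, 0.780% and 0.689% in control hearts 1, 2 and 3. Each edited heart was above each control heart in this share of raw counts. After TMM scaling the groups overlapped. The 39 genes then summed to 7770, 8905 and 7915 CPM in edited and 7395, 8017 and 7099 CPM in control hearts. At the low end were Comp, cartilage oligomeric matrix protein, at 1.22 CPM per kilobase in edited and 1.21 in control hearts, Dpp4 (0.894 and 1.22) and Wisp2 (1.01 and 0.192).

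**Figure D2:**
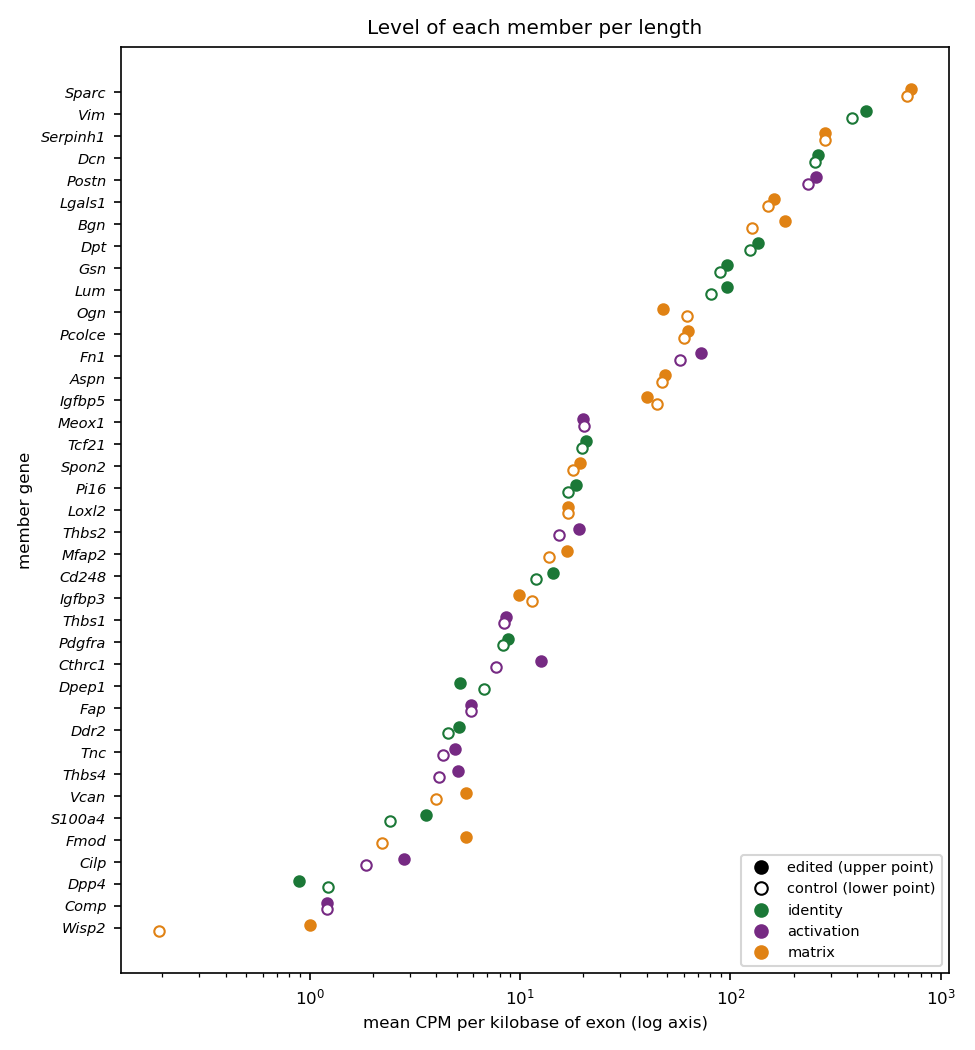
Mean CPM per kilobase of exon of each member on a log axis, edited hearts as filled upper points and control hearts as open lower points (n = 3 each), coloured by group of genes. The order of the genes is nearly shared by both conditions, from Sparc at the top to Wisp2 at the bottom, and Wisp2, Fmod and Cthrc1 show the widest gaps to the right.

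Fibroblast identity genes gave 1 call. Of 13 genes, 1 rose in edgeR (7.69%, where 4.93% of all tested genes were called higher). The number that fell was 0, where 4.74% of all tested genes were called lower. An unadjusted p under 0.05 was found for 6, without a share of all tested genes to set beside it. The median log2 change was 0.11. Pdgfra, the growth factor receptor that marks cardiac fibroblasts, was at 71.9, 68.9 and 66.9 CPM in edited hearts 1, 2 and 3, against 59.4, 74.5 and 63.1 CPM in control hearts 1, 2 and 3. Tcf21, a transcription factor of the fibroblast lineage, was at 23.2, 27.8 and 25.5 CPM in edited and 22.7, 29.6 and 20.8 CPM in control hearts. Control 2 was the highest library for both, and the groups overlapped. Their fold changes were 1.05 and 1.04, with ±2 SE intervals of 0.948 to 1.17 and of 0.873 to 1.25.

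Dcn, the most abundant of the identity proteoglycans, was at 534, 566 and 545 CPM in edited and 503, 588 and 508 CPM in control hearts. Its fold change was 1.03, with an interval of 0.943 to 1.12. Lum, lumican, which like decorin binds collagen fibrils, was at 196, 196 and 209 CPM in edited and 163, 182 and 158 CPM in control hearts. The Lum groups did not overlap, and the log2 change was 0.26 (SE 0.06, adjusted p = 0.0182). Its call was lost in edgeR without edited 3 (adjusted p = 0.104), control 1 (0.0846) or control 3 (0.133); the alternatives gave 0.00102 to 0.613. Lum (chromosome 10, 97565501 to 97572703, plus strand, mm10) starts 47.3 kb after the end of Dcn on the same strand, so these neighbours differed in whether they were called; the difference between them was not tested.

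The other identity genes were not called. Vim was at 719, 928 and 783 CPM in edited and 718, 706 and 650.2 CPM in control hearts, with edited 2 highest and edited 1 barely above control 1 (log2 0.23, SE 0.09, adjusted p = 0.137 in edgeR). Without edited 1 Vim passed, at adjusted p = 0.0172; the alternatives gave 0.00643 to 0.674. Ddr2, a collagen receptor, was at 44.8, 44.9 and 45.8 CPM in edited and 39.8, 42.0 and 38.6 CPM in control hearts, without overlap but with a log2 change of 0.17 (SE 0.06, edgeR adjusted p = 0.0952). Ddr2 passed with limma voom and quality weights (adjusted p = 0.0336; 0.0336 to 0.734 across alternatives). Gsn, the actin-severing protein gelsolin, averaged 297 ± 25.3 CPM in edited and 275 ± 20.8 CPM in control hearts (SD, n = 3). Dpt, the matrix protein dermatopontin, was at 218, 214 and 233 CPM in edited and 192, 220.4 and 194 CPM in control hearts, and the groups overlapped through control 2.

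Pi16, a marker of fibroblasts around larger vessels, had 47.1 ± 7.94 CPM in edited and 43.5 ± 6.64 CPM in control hearts, and the endosialin gene Cd248 36.8 ± 6.17 and 30.5 ± 3.50 CPM (SD, n = 3). Cd248 passed without edited 1 (edgeR adjusted p = 0.0133; 0.0133 to 0.639 across alternatives). S100a4, a calcium-binding protein that leukocytes also express, was scarce, at 2.23 ± 0.274 CPM in edited and 1.51 ± 0.217 CPM in control hearts. A pair of surface enzymes had negative estimates. Dpp4, the dipeptidyl peptidase CD26, was at 9.08, 8.31 and 6.53 CPM in edited and 10.2, 13.4 and 9.14 CPM in control hearts (log2 -0.45, SE 0.16, edgeR adjusted p = 0.105). All 3 edited hearts were below the lowest control heart for Dpp4, by a narrow margin. Dpep1, a membrane dipeptidase, was at 12.1, 13.3 and 10.7 CPM in edited and 13.2, 19.5 and 14.3 CPM in control hearts (log2 -0.38, SE 0.15, adjusted p = 0.138). In edgeR without a filter on low counts, Dpp4 and Dpep1 both passed (adjusted p = 0.00506; 0.00506 to 0.295 across alternatives for Dpp4, and 0.00671; 0.00671 to 0.332 for Dpep1).

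Activation genes gave 3 of the 6 rises. Of 11 genes, 3 rose (27.3%, where 4.93% of all tested genes were called higher) and 0 fell in edgeR. Their median log2 change was 0.18. Cthrc1, a secreted protein of injury-activated fibroblasts, was at 16.3, 14.98 and 15.9 CPM in edited and 11.9, 9.22 and 7.52 CPM in control hearts. The edited hearts lay close together and all above control 1, the highest control. The log2 change was 0.73 (SE 0.13), a fold change of 1.66, with an edgeR adjusted p of 0.00645 that stayed under the threshold without any 1 library. With Myl7 as a covariate the Cthrc1 call was lost (log2 0.58, adjusted p = 0.219), the highest of its alternatives, which began at 4.32e-09. Cthrc1 is a plus-strand gene of chromosome 15 (39076851 to 39087121).

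Fn1, fibronectin, was at 592, 671 and 565 CPM in edited and 459, 544 and 455 CPM in control hearts. Control 2 came near edited 3, without overlap (log2 0.33, SE 0.08, edgeR adjusted p = 0.0311). The Fn1 call was lost without edited 1 (adjusted p = 0.0710), control 1 (0.118) or control 3 (0.140); the alternatives gave 1.06e-05 to 0.620. Fn1 is a minus-strand gene of chromosome 1 (71585473 to 71653234).

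The thrombospondins are multimeric matrix glycoproteins, of which 4 are members with Comp counted among them. Thbs2, which modulates collagen fibrils and cell adhesion, was at 111, 119 and 108 CPM in edited and 82.4, 102 and 87.9 CPM in control hearts (log2 0.31, SE 0.07, edgeR adjusted p = 0.0182). The Thbs2 groups (chromosome 17, 14665500 to 14694262, minus strand) did not overlap, and the call was lost without control 1 (adjusted p = 0.0776) or control 3 (0.111); the alternatives gave 2.59e-05 to 0.610. Thbs1 had 50.1 ± 5.89 CPM in edited and 49.3 ± 1.98 CPM in control hearts (SD, n = 3), with a ±2 SE interval of the fold change of 0.912 to 1.14. Thbs4 was at 18.6, 20.2 and 9.83 CPM in edited and 12.3, 15.4 and 11.9 CPM in control hearts, so that edited 3 was the lowest library of all. Without edited 3, Thbs4 had a log2 change of 0.55 in place of 0.30 and passed in edgeR (adjusted p = 0.0184; 0.0184 to 0.974 across alternatives). Comp was at 3.24, 5.03 and 2.79 CPM in edited and 1.79, 6.53 and 2.66 CPM in control hearts, with libraries numbered 2 highest in each group.

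Postn, the standard marker of activated fibroblasts, was not called. It was at 881, 910.4 and 824 CPM in edited and 737, 960.3 and 677 CPM in control hearts. Control 2 was the highest of the 6 libraries while controls 1 and 3 were the lowest (log2 0.14, SE 0.14, edgeR adjusted p = 0.607). Tnc, the injury-associated matrix protein tenascin C, also had control 2 highest and controls 1 and 3 lowest: 33.2, 38.6 and 36.4 CPM in edited and 26.1, 43.0 and 26.0 CPM in control hearts (log2 0.18, SE 0.23, adjusted p = 0.717). Cilp, a secreted protein of activated cardiac fibroblasts, was at 10.6, 14.0 and 10.6 CPM in edited and 6.04, 9.95 and 7.15 CPM in control hearts, without overlap (log2 0.59, SE 0.18, adjusted p = 0.0774). Without control 2, all 3 passed in edgeR (adjusted p = 0.0123 for Postn, in a range of 0.0123 to 0.896; 0.00680 for Tnc, 0.00680 to 0.937; 0.00807 for Cilp, 5.88e-04 to 0.695). Fap, the protease that names activated fibroblasts, had 16.6 ± 1.65 CPM in edited and 16.7 ± 0.856 CPM in control hearts (SD, n = 3). Meox1, a homeobox factor of fibroblast activation, was at 40.2, 48.6 and 42.5 CPM in edited and 47.4, 42.7 and 43.9 CPM in control hearts. The ±2 SE intervals of their fold changes were 0.881 to 1.13 and 0.882 to 1.09. Fap and Dpp4 are neighbouring, related proteases 88.6 kb apart on chromosome 2.

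Set against each other, activation and identity genes did not separate the groups. The median deviation of the activation genes from their 6-library means, less that of the identity genes, was 0.15, 0.13 and -0.11 log2 units in edited hearts 1, 2 and 3, against -0.10, -0.0080 and -0.13 in control hearts 1, 2 and 3. Edited 3 lay within the control range. The 11 activation genes made up 28.4%, 26.8% and 25.7% of the summed CPM per kilobase of both groups of genes in edited hearts. In control hearts they made up 25.8%, 28.4% and 25.1%, again with overlap. Abundant genes weigh most in this share. Postn held 256 CPM per kilobase in edited and 233 in control hearts, and Fn1, the next activation gene, 72.4 and 57.7. The share is therefore not independent of the ratio of Postn to Dcn. For every 100 units of Dcn per kilobase there were 102, 99.6 and 93.5 units of Postn in edited and 90.7, 101 and 82.4 units in control hearts. No test was made of these summed values, since their genes were chosen with results in view.

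The further matrix and secreted genes gave 2 rises (13.3%) and 1 fall (6.67%) among 15, with a median log2 change of 0.074. Of all tested genes, 4.93% were called higher and 4.74% lower. Vcan, versican, a large proteoglycan of provisional matrix, was at 92.0, 89.4 and 74.0 CPM in edited and 63.1, 64.0 and 56.2 CPM in control hearts. Its groups did not overlap (log2 0.48, SE 0.08, edgeR adjusted p = 0.00463), and the call remained without any 1 library. It was lost with Myl7 as a covariate (log2 0.40, adjusted p = 0.168) and with controls 1 and 3 left out (log2 0.41, adjusted p = 0.279), where the alternatives ran from 2.84e-10 to 0.279. Wisp2, also named Ccn5, a matricellular protein of the CCN family, had only 34, 41 and 44 counts in edited hearts 1, 2 and 3, against 4, 14 and 4 counts in control hearts 1, 2 and 3. These are levels of 1.45, 2.32 and 2.46 CPM in edited and 0.239, 0.737 and 0.209 CPM in control hearts. The fold change was 5.06 with a ±2 SE interval of 2.89 to 8.85 (edgeR adjusted p = 0.00390), and this call too remained without any 1 library. The log2 change was 2.34 with all libraries, 2.03 to 3.16 without 1 library at a time, and highest without control 2. The Wisp2 call was lost with Myl7 as a covariate (log2 1.43, adjusted p = 0.196) and with controls 1 and 3 left out (log2 1.47, adjusted p = 0.251), where the alternatives ran from 4.89e-09 to 0.251. Vcan is a minus-strand gene of chromosome 13 (89655310 to 89742694) and Wisp2 a plus-strand gene of chromosome 2 (163820752 to 163833146).

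Ogn was the member that fell. It was at 129, 123 and 112 CPM in edited and 153, 173 and 147 CPM in control hearts. Every edited heart was below every control heart (log2 -0.38, SE 0.07, edgeR adjusted p = 0.00552), and the call remained without any 1 library and with Myl7 as a covariate (adjusted p = 0.0196). It was lost with controls 1 and 3 left out (log2 -0.52, adjusted p = 0.0530), where the alternatives ran from 1.87e-07 to 0.0530. Ogn is a plus-strand gene of chromosome 13 (49608071 to 49624500), 40.5 kb after Aspn, asporin, which belongs to the same family of small leucine-rich proteoglycans. Aspn was at 125, 106 and 116 CPM in edited and 113, 119 and 103 CPM in control hearts, with overlap and a ±2 SE interval of the fold change of 0.940 to 1.14. The difference between these neighbours was not tested. Exons of Aspn, Pi16 and Lgals1 share 11.7%, 8.89% and 20% of their bases with a gene on the opposite strand, and the sources used here do not say whether strand was used in counting, so reads of these 3 genes and their partners may not be told apart.

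The sequences before the start sites of Ogn and Aspn are shown because these adjacent relatives gave different results, and that of Thbs2 as the called member of its family with a promoter entry. Each holds the 250 bases before the RefSeq start (GRCm38.p6, the assembly of mm10), written 5′ to 3′ on the strand of the gene. For Ogn this start lies upstream of the start given above, so distances are counted from the RefSeq start. Capitals mark matches on either strand to TATAAA (the TATA box), GGAATG (the site of TEAD factors) and CCAAT (the CCAAT box).
Ogn, chr13:49607765-49608014, plus strand: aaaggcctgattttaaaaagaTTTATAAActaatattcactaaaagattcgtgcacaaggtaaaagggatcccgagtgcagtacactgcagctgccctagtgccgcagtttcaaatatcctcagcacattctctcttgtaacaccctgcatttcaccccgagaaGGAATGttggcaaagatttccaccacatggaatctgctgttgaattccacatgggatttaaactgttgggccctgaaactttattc
Aspn, chr13:49544193-49544442, plus strand: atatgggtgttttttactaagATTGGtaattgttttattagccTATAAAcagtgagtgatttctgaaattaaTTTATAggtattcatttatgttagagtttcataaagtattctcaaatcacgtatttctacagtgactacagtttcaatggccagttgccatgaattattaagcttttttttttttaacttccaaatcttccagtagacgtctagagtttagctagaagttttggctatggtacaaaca
Thbs2, chr17:14694263-14694512, minus strand: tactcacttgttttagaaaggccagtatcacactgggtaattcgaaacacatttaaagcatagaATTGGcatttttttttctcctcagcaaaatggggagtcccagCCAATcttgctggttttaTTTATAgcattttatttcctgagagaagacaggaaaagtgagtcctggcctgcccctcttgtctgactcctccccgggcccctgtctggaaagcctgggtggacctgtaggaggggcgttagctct
In the Ogn window, 2 overlapping TATAAA matches on opposite strands begin 229 and 227 bases before the start, and the GGAATG match begins 86 bases before it. The Aspn window has TATAAA matches 207 and 178 bases before the start and a CCAAT match at 229. The Thbs2 window has 1 TATAAA match at 126 and CCAAT matches at 186 and 144. Promoter entries were matched for 26 of the 39 members. TATAAA was found for 9 of these 26 genes (34.6%, against 14.3% of 27025 genes with such a window) and GGAATG for 6 (23.1%, against 14.4%). CCAAT was found for 7 (26.9%, against 37.5%), and the AP-1 motif TGANTCA for 0, where 7.82% of all genes had it. These are matches of letters and were not tested.

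**Figure D3:**
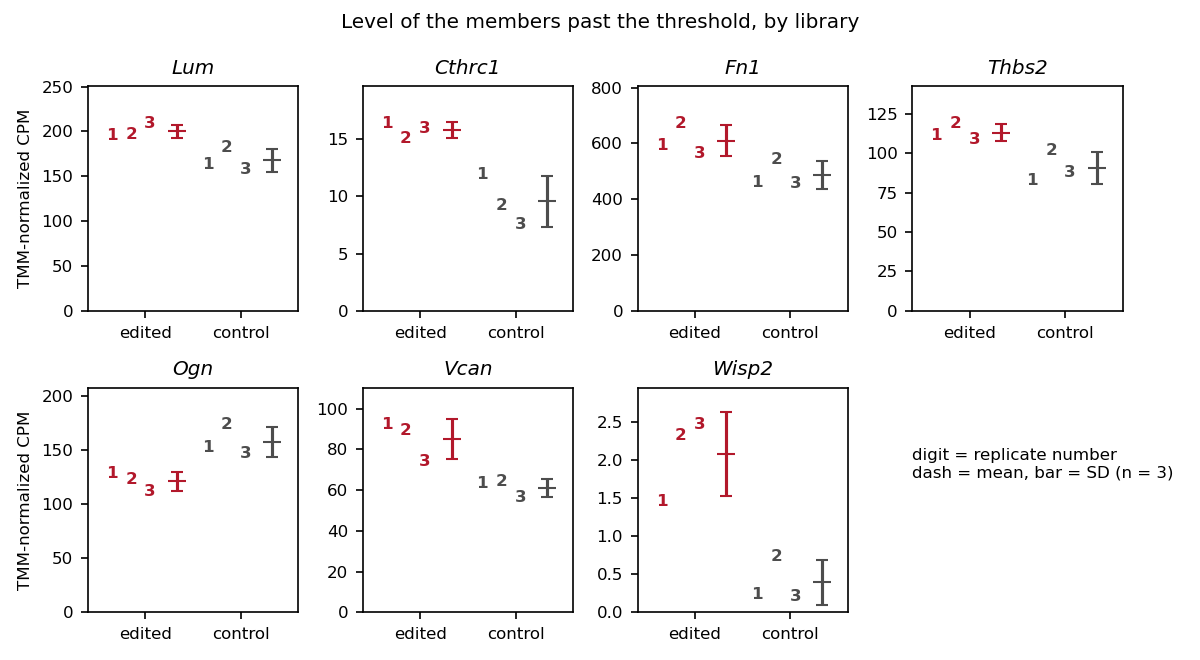
TMM-normalized CPM of the 7 members past the threshold, each digit being a library's replicate number, with the mean and SD of each group (n = 3) beside the digits and every axis starting at 0. For each gene the edited and control digits do not overlap; Ogn is the gene with edited hearts below, and control 2 is the control nearest to the edited hearts for Lum, Fn1, Thbs2, Vcan and Wisp2.

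The other proteoglycans of this family varied between libraries. Bgn, biglycan, was at 395, 573 and 393 CPM in edited and 298, 349 and 293 CPM in control hearts. Its groups did not overlap, yet edited 2 stood far above the rest (log2 0.53, SE 0.18, edgeR adjusted p = 0.168); without edited 2 the log2 change was 0.33 and passed (adjusted p = 0.00836; 0.00215 to 0.729 across alternatives). Fmod, fibromodulin, was at 15.2, 25.0 and 7.54 CPM in edited and 3.41, 11.3 and 4.23 CPM in control hearts. Here too the libraries numbered 2 were highest in their groups, and the groups overlapped (log2 1.31, SE 0.70, adjusted p = 0.357). Among the 6 small leucine-rich proteoglycans, then, Lum rose, Ogn fell, and Dcn, Bgn, Aspn and Fmod were not called.

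Genes of collagen processing differed by less than their spread. Serpinh1 was at 644, 758 and 660.1 CPM in edited and 706, 672 and 690.1 CPM in control hearts, with the edited hearts on both sides of the controls. Pcolce, an enhancer of procollagen cleavage, had 124 ± 10.5 CPM in edited and 119 ± 5.80 CPM in control hearts, and Loxl2, a collagen cross-linking oxidase, 93.7 ± 6.15 and 94.3 ± 6.79 CPM (SD, n = 3). The ±2 SE intervals of the fold changes of Serpinh1, Pcolce and Loxl2 all lay between 0.908 and 1.14. Sparc was at 1746, 2106 and 1884 CPM in edited and 1861, 1823 and 1765 CPM in control hearts, with both the highest and the lowest library among the edited hearts. Mfap2, a microfibril protein, had 39.8 ± 5.09 CPM in edited and 32.8 ± 2.96 CPM in control hearts without overlap (log2 0.28, SE 0.09, edgeR adjusted p = 0.0925). It passed without edited 1 (adjusted p = 0.0370; 0.00381 to 0.763 across alternatives). The spondin Spon2 had 45.2 ± 3.28 CPM in edited and 42.0 ± 1.00 CPM in control hearts, where values are mean and SD of 3 libraries. The galectin Lgals1 was at 120.2, 147 and 119 CPM in edited and 134, 116 and 114 CPM in control hearts, with overlap. The binding proteins of insulin-like growth factors had negative estimates without a call: Igfbp3 was at 25.9 ± 2.79 CPM in edited and 29.7 ± 5.43 CPM in control hearts, and Igfbp5 at 235 ± 9.33 and 262 ± 56.6 CPM (SD, n = 3), with control 2 at 328 CPM and the other controls at 232 and 228.

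Library by library, control 2 was the highest control for 26 of the 39 members, control 3 for 2, and control 3 was the lowest control for 23. Among edited hearts, edited 2 was the highest for 23. Edited 2 also stood apart in fat cell transcripts: Ucp1, the uncoupling protein of brown fat, had 1, 498 and 46 counts in edited hearts 1, 2 and 3, against 3, 51 and 3 counts in control hearts 1, 2 and 3, and Plin1, a lipid droplet protein, had 0, 62 and 7 counts in edited and 0, 5 and 0 counts in control hearts. The part of these transcripts in the members' values was not tested, and all 7 calls remained without edited 2. Identity genes had median deviations of -0.023, 0.10 and 0.11 log2 units in edited hearts 1, 2 and 3, against -0.10, 0.049 and -0.13 in control hearts 1, 2 and 3. Those of activation genes were 0.13, 0.23 and -0.0034 in edited and -0.20, 0.041 and -0.25 in control hearts. Controls 1 and 3 thus held the lowest values in both groups of genes. The same 2 controls held little of the atrial transcript Myl7, an atrial myosin light chain: 542, 371 and 914 CPM in edited hearts 1, 2 and 3, against 6.88, 332 and 0.209 CPM in control hearts 1, 2 and 3. With log2 Myl7 as a covariate, 0 members were called higher in edgeR and Ogn remained the 1 called lower. Of all genes, 46 were then called higher and 82 lower. With controls 1 and 3 left out, Cthrc1 was the 1 called higher and Igfbp5 the 1 called lower, from 1 control library, so that the edited hearts alone give the spread.

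**Figure D4:**
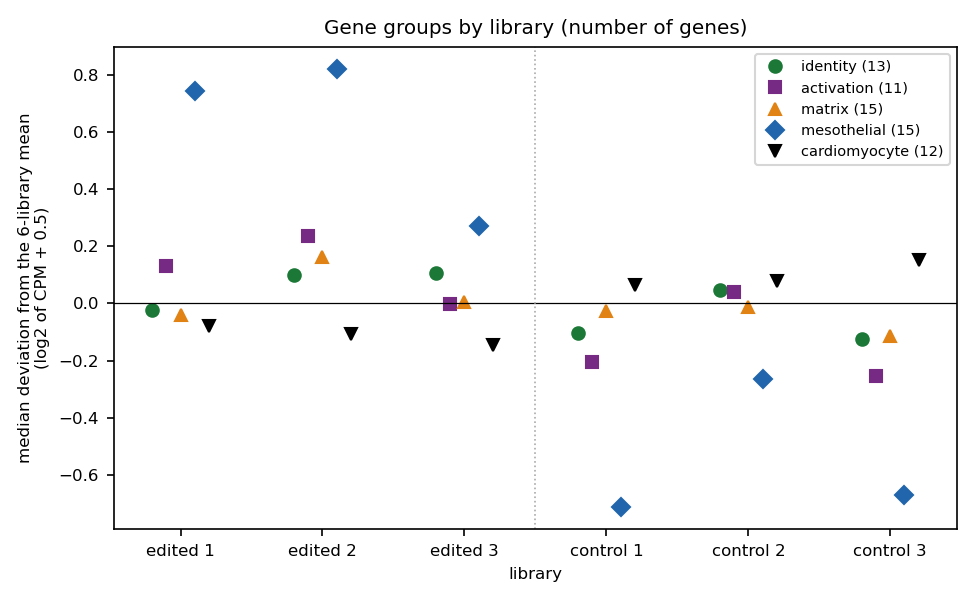
Median deviation of each gene group from its 6-library means, in log2 of CPM + 0.5, for each library (edited left of the dotted line, control right; the number of genes is in the legend). Identity, activation and matrix genes spread between -0.25 and 0.23 with control 2 near the edited hearts, while mesothelial genes are above 0 and heart muscle genes below 0 in every edited heart.

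Markers of some other cell types moved between the same groups, where 4.93% of all tested genes were called higher and 4.74% lower. Of 15 mesothelial and epicardial genes, 10 rose (66.7%) and 1 fell (6.67%). Their median log2 change was 1.85. Their summed level, in which the abundant genes weigh most, was 116 to 155 CPM in edited and 106 to 115 CPM in control hearts. Msln, mesothelin, was at 11.3, 11.8 and 6.53 CPM in edited and 2.63, 2.79 and 2.45 CPM in control hearts, while Wt1, an epicardial transcription factor, fell to 15.2 ± 1.98 CPM in edited hearts, against 19.9 ± 1.81 CPM in control hearts (SD, n = 3). Of 12 heart muscle genes, 0 rose and 6 fell (50%). Their summed levels were 82916 to 87446 CPM in edited and 97549 to 100869 CPM in control hearts. Of 12 tendon and valve genes, which include the members Comp, Fmod and Thbs4, 2 of 10 tested rose (20%), Scx and Sox9. Their summed levels were 44.7 to 96.6 CPM in edited and 43.6 to 66.5 CPM in control hearts. Of 12 tested smooth muscle and pericyte genes 0 rose and 1 fell, Myocd. This 8.33% is near the 9.66% of all tested genes called in either direction. The smooth muscle and pericyte genes summed to 3336 to 4321 CPM in edited and 3939 to 3964 CPM in control hearts. Their marker Tagln was under 1 CPM in every library, while the smooth muscle actin gene Acta2 was at 325 to 856 CPM. The reason for the low Tagln counts was not tested. The part of these markers in the changes of the members was not tested.

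Other genes of fibroblasts went both ways. In a list of 24 further fibroblast genes, 3 of 23 tested rose and 3 fell (13% each, median log2 0.026). Of all tested genes, 4.93% were called higher and 4.74% lower. Fstl1, a secreted glycoprotein, was at 594 ± 54.8 CPM in edited and 441 ± 36.4 CPM in control hearts, and Mfap4, a microfibril-associated protein, at 223 ± 33.8 and 133 ± 17.1 CPM (SD, n = 3). Loxl1, an elastin cross-linking oxidase, was the other rise (log2 0.49, SE 0.10). The falls were Pcsk6, a proprotein convertase (107 ± 3.73 CPM in edited and 142 ± 1.63 CPM in control hearts), Scara5 (log2 -0.41, SE 0.11) and Smoc2 (log2 -0.18, SE 0.05). A further list held 31 genes of fibroblast activation and TGF-beta signalling. Of 29 tested, 3 rose (10.3%) and 1 fell (3.45%), beside the same 4.93% and 4.74% of all tested genes. The median log2 change of this list was 0.11.

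In that pathway, the ligand gene Tgfb3 was at 41.9 ± 7.07 CPM in edited and 31.2 ± 2.54 CPM in control hearts (log2 0.42, SE 0.11, edgeR adjusted p = 0.0492), and the co-receptor gene Tgfbr3 fell to 37.3 ± 0.378 CPM in edited hearts, against 51.0 ± 6.87 CPM in control hearts (SD, n = 3). The target Ctgf rose, at 79.7 ± 8.06 CPM in edited and 56.5 ± 6.09 CPM in control hearts, and so did Scx, a tendon transcription factor, at 4.91 ± 0.199 and 3.33 ± 0.469 CPM. Acta2, the smooth muscle actin of myofibroblasts and vessel walls, was at 617, 856 and 325 CPM in edited and 502, 604 and 482 CPM in control hearts, so edited hearts held both the highest and the lowest library. Col1a1, a fibrillar collagen chain, was at 1476, 2297 and 1605 CPM in edited and 1282, 1552 and 1298 CPM in control hearts. Col1a1 was not called.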

How the data were processed

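RNA from mouse heart tissue was sequenced in 3 edited and 3 control libraries. The authors deposited a table of raw read counts per gene; the submitters' processing notes name STAR, featureCounts, cutadapt and FastQC and the mm10 build, without tool versions. The table holds 2 columns per library, which differed for 0 genes, and 1 was used. Library totals were 17062412 to 23097998 counts.

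Groups were compared with edgeR 4.0.16 in R 4.3.3 (filterByExpr, TMM scaling, robust quasi-likelihood fit), with Benjamini-Hochberg adjustment over 14879 genes and a threshold of 0.05. The standard error of a log2 change was taken from the F statistic, and intervals are ±2 standard errors. Deviations of libraries used log2 of CPM + 0.5. The group comparison was tested on simulated counts. Alternatives included DESeq2 1.42.0, limma 3.58.1 with quality weights, other filters and scalings, a replicate block, Myl7 as a covariate and the omission of libraries. Promoter windows came from the RefSeq table for GRCm38.p6.

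The members and gene lists were chosen with earlier results of these data known. Values in every library are given for members past the threshold and for the 3 members with the smallest p and the 3 most abundant per length in each of the identity, activation and matrix groups. Of each further list, up to 4 genes with the smallest p may be named. Acta2, Col1a1, Wt1, Ucp1 and Plin1 and the individual values of other members were added after their values were seen. Scara5, Smoc2, Tagln, Adipoq and Retn are also named outside this rule.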

Additional observations from a re-analysis of the deposited data

How the results depend on the processing

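Of 624 values of single members over 16 alternatives, 530 kept their direction and side of the threshold, 20 were no longer past it, 22 passed it only there and 52, of 17 genes, changed sign, with 0 of those called. All 7 called members were still called under every alternative of scaling, filter and tool, with the replicate block, and without edited 2 or control 2. Without 1 library at a time, the members called higher numbered 3 to 9 (6 with all libraries), identity genes 0 to 3, activation genes 1 to 6, all genes called higher 188 to 921, lower 198 to 756 and in total 386 to 1661. With Myl7 as a covariate, 0 members were called higher (0 identity, 0 activation, 0 matrix), and 46 of all genes higher, 82 lower and 128 in total; with controls 1 and 3 left out, 1 member was higher (0 identity, 1 activation, 0 matrix), and 29 genes higher, 53 lower and 82 in total. There Camk2d had a log2 change of -0.62 (edgeR adjusted p = 0.0964, in a range of 3.13e-19 to 0.0964). Without a filter 3 members were lower, 2 identity genes higher, and 1290 genes higher of 2239 called; DESeq2 and voom each called 2 identity genes higher, and voom 1194 genes higher and 1091 lower of 2285. The cause of these shifts was not tested.

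Same-numbered libraries did not deviate together (correlations 0.0039, -0.11 and -0.081), and the main test did not pair them. So few libraries cannot show whether same-numbered samples were handled together. The replicate block called 9 members higher and 1 lower, with 4 matrix genes higher, Fmod (log2 1.35, edgeR adjusted p = 0.0276; 0.0276 to 0.894 across alternatives) and Bgn among them, and 620 genes higher and 457 lower of 1077.

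Signs changed as follows, in log2 units. With Myl7 as a covariate, Pdgfra was at -0.058, Tcf21 at -0.21, Dcn at -0.076, Postn at -0.13, Fap at 0.0021, Tnc at -0.21, Meox1 at 0.0091, Aspn at -0.073 and Serpinh1 at 0.033. With controls 1 and 3 left out, Pdgfra was at -0.11, Tcf21 at -0.22, Dcn at -0.11, Postn at -0.14, Tnc at -0.26, Meox1 at 0.031, Aspn at -0.045 and Serpinh1 at 0.029. With upper-quartile scaling, Comp was at 0.017, Fap at 0.021, Serpinh1 at 0.021 and Loxl2 at 0.018. Comp was at 0.0073 with DESeq2, 0.12 with voom and 0.11 with the replicate block, Thbs1 at -0.054 with voom, and Fap at 0.00011 with the filter of 1 CPM. Without 1 library at a time, Tcf21 lay between -0.042 and 0.22, Pi16 between -0.013 and 0.25, Comp between -0.32 and 0.71, Fap between -0.094 and 0.045, Thbs1 between -0.039 and 0.12, Meox1 between -0.11 and 0.030 and Aspn between -0.011 and 0.11. Likewise, Sparc lay between -0.0013 and 0.13, Serpinh1 between -0.080 and 0.041, Pcolce between -0.017 and 0.093, Loxl2 between -0.057 and 0.049, Igfbp5 between -0.25 and 0.029 and Lgals1 between -0.019 and 0.16. The causes were not tested. At 4 to 44 counts per library, Wisp2 is the called member with the fewest counts.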

Other observations

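Further cell types were not called between the groups. Of 12 endothelial genes and 12 macrophage genes, 0 rose and 0 fell in edgeR, where 1 endothelial and 4 macrophage genes had an unadjusted p under 0.05. The macrophage genes summed to 137 to 154 CPM in edited and 157 to 170 CPM in control hearts, so each edited heart lay below each control heart. Of 6 tested Schwann cell genes 0 were called and 2 had an unadjusted p under 0.05, and the list summed to 21.9 to 36.3 CPM in edited and 12.0 to 24.9 CPM in control hearts. Of 4 tested adipocyte genes 0 were called and 0 had an unadjusted p under 0.05, with sums of 577 to 644 CPM in edited and 569 to 652 CPM in control hearts. Fabp4, which endothelial cells also express, held 542 to 566 CPM of this in edited and 529 to 613 CPM in control hearts, while Adipoq had 3, 48 and 12 counts in edited and 1, 4 and 0 counts in control hearts, highest in edited 2. Retn was listed at 0 in every library. Of 8 tested atrial genes 0 were called and 0 had an unadjusted p under 0.05, though all 8 had positive estimates (median log2 1.36). The list summed to 2784, 2086 and 3947 CPM in edited and 497, 2827 and 489 CPM in control hearts, in order of number. Controls 1 and 3 thus held far less than the other libraries.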
